A study of Saccharomyces cerevisiae with 160 samples.

Results

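The comparison described here sets a budding yeast culture (Saccharomyces cerevisiae) labelled cdc8 cdc20, designed to lose both Cdc8 activity and Cdc20, against cultures labelled cdc8, designed to lose Cdc8 activity alone, at the arrest of each strain in its cell cycle. The strain names below are those labels. Its members were chosen by strain and time: 5 arrays of the cdc8 cdc20 culture taken at 162 to 234 min, and 10 arrays of cdc8 taken at 180 to 260 min, 5 from each of 2 replicate cultures. These 15 arrays belong to 3 of the 9 cultures, and to 160 arrays, of the series, which followed synchronised mutant populations over time on expression microarrays. Both strains are BF264-15DU by their labels. The cdc8 strain is MATa with the cdc8-ts allele. The cdc8 cdc20 strain is MATa with cdc8ts, bar1, cdc20::LEU2, Pgall-CDC20::ADE2 and CFP-TUB1::URA3, so that the only copy of CDC20 is driven by a galactose promoter. In the study both populations were early G1 cells separated by size, released at a temperature restrictive for cdc8, and the Pgall-CDC20 cells were moved from galactose to dextrose medium to deplete Cdc20. The BF264-15DU background, the MATa mating type and the cdc8 allele are thus shared by both arms. The bar1 allele, the CFP-tagged tubulin, the LEU2, ADE2 and URA3 markers and the galactose pre-growth differ together with CDC20, and their parts in any difference cannot be told apart. The cdc8 cdc20 arm is 1 strain and 1 culture, whose own culture-to-culture spread was not measured here.

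Cdc8 is thymidylate kinase, which makes a precursor of dTTP, and without it replication forks stop. Stalled forks activate the DNA replication checkpoint, in which the kinases Mec1, Rad53 and Dun1 act in sequence, hold back anaphase and raise transcription of the RNR genes for ribonucleotide reductase. Cdc20 activates the anaphase promoting complex (APC), a ubiquitin ligase that targets securin and mitotic cyclins for destruction. In a cell already held before anaphase, the comparison asks how far removal of Cdc20 moves the transcript levels beyond those of the cdc8 arrest.

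The deposited values are microarray intensities, reported below as such or as log2(intensity + 1). Across the 15 arrays the median intensity of the 5716 yeast probe sets lay between 1057 and 1135, and the lowest correlation of an array with its own culture mean was 0.995. Culture means of the cdc8 replicates correlated at r = 0.996 across probe sets, while the cdc8 cdc20 culture correlated at 0.963 and 0.965 with them and at 0.920 to 0.934 with the cdc20 and rad53 cultures. Probe sets are not independent replicates, so these are descriptions. In populations of cells, a change in the share of cells that make a transcript and a change in level per cell cannot be told apart.

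Both arms carried the marks of a replication arrest. HUG1, an inhibitor of ribonucleotide reductase made under replication stress, had a log2 intensity of 13.55 in cdc8 cdc20 and of 14.04 and 13.73 in the cdc8 cultures, against 7.50 to 8.23 in the 6 cdc20, rad53 and cse4 cultures. The subunit genes RNR2 and RNR4 stood at 14.80 and 14.58 in cdc8 cdc20 and differed from cdc8 by 0.02 and -0.02 (adjusted p = 0.955 and 0.974). The summed intensity of the 4 replication stress markers RNR2, RNR3, RNR4 and HUG1 was 68464 in cdc8 cdc20 and 82589 and 72926 in cdc8. Among these 4 only RNR3 was called, lower in cdc8 cdc20 (difference -1.48). As for mating type, the 6 MATa markers summed to 44585 against 31341 and 33206, and the 4 MATalpha markers to 1751 against 1877 and 1501. The MATa markers MFA1 and MFA2 were called higher (0.75 and 0.74) and the MATalpha marker MF(ALPHA)2 lower (-1.74). The other MATalpha markers STE3, MF(ALPHA)1 and SAG1 had positive differences (0.53, 0.44 and 0.48) and were not called. The median difference was 0.32 for the MATa and 0.46 for the MATalpha markers, so the 2 sets did not move in opposite directions. The 12 markers of sporulating cells summed to 2646 in cdc8 cdc20 against 2310 and 2442 in cdc8, and 1 of them, IME2, was higher.

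At the arrest, 341 of 5716 probe sets differed between the strains by limma at an adjusted p of at most 0.05, which is 5.97 percent. Of these, 183 (3.2 percent of all) were higher and 158 (2.76 percent) lower in cdc8 cdc20. Among them, 88 were higher and 89 lower by at least 1 log2 unit. The median difference over all probe sets was 0.05 log2, the median absolute difference was 0.23, and the median SD between the cdc8 cultures was 0.06. The single cdc8 cdc20 culture was assumed to vary like the other strains, and the spread came from the 4 strains with 2 cultures (4 residual degrees of freedom). The number of calls depended on that spread. Leaving out cdc8 replicate 1 gave 45 calls and leaving out cdc8 replicate 2 gave 67. Leaving out a rad53 replicate (either of them) gave 130, a cdc20 replicate 186 and a cse4 replicate 1286. The cse4 replicates had a median SD of 0.20, against 0.06 to 0.09 in the other strains.

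**Figure D1:**
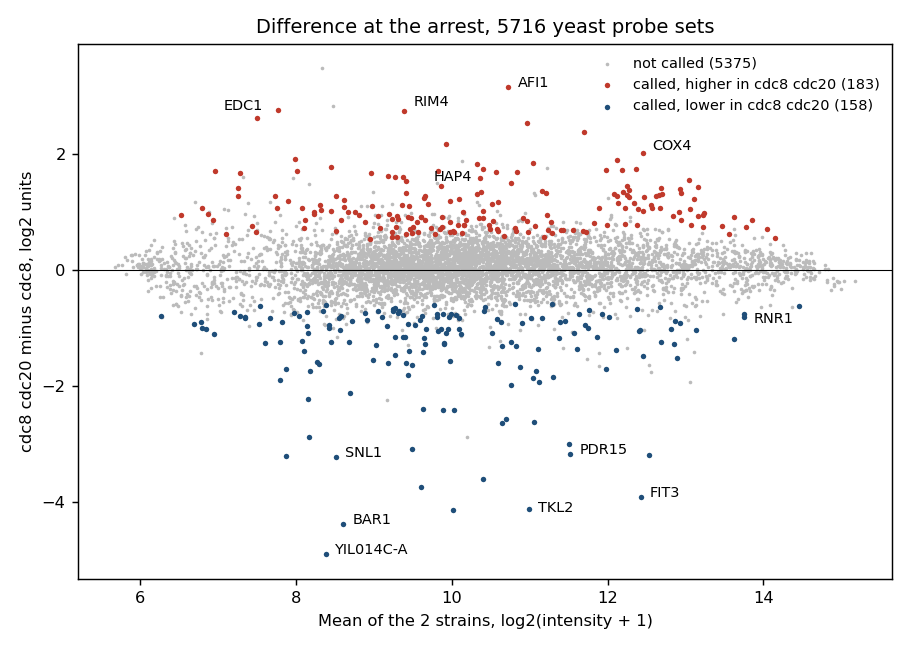
Difference between the strains at the arrest (cdc8 cdc20 minus cdc8, log2 units) against the mean log2(intensity + 1) of both strains, 1 point per yeast probe set. Red points are the 183 called higher and blue points the 158 called lower in cdc8 cdc20. The lowest points as measured are YIL014C-A and BAR1, and the highest called point is AFI1.

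The leading probe sets, the 12 of largest difference in each direction among those called whose 5 cdc8 cdc20 arrays all lay outside the range of the 10 cdc8 arrays, fell into a few groups. The higher ones held the respiratory genes COX4, CYT1, INH1 and HAP4, and the lower ones held the iron-related genes FIT3, FIT2, ARN2 and LSO1. Others stand next to genes altered in the strains. Array values outside the range of the other strain were common over all probe sets (2284 of 5716, 40 percent), since the 5 arrays of a culture are successive time points and not replicates. Of the 111 genes named by rule, 90 were called. Only 20 of these 90 kept their call in every alternative setting in which they were tested: AFI1, BAR1, COX4, COX5A, CYT1, EDC1, FIT1, FIT3, GTT2, HAP4, HOS2, HXT5, LSO1, PDR15, QCR6, RIM4, SNL1, TKL2, YHR140W and YIL014C-A. Leaving out cdc8 replicate 1 left 23 of the 90 called, leaving out cdc8 replicate 2 left 31, and leaving out either rad53 replicate left 38.

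**Figure D2:**
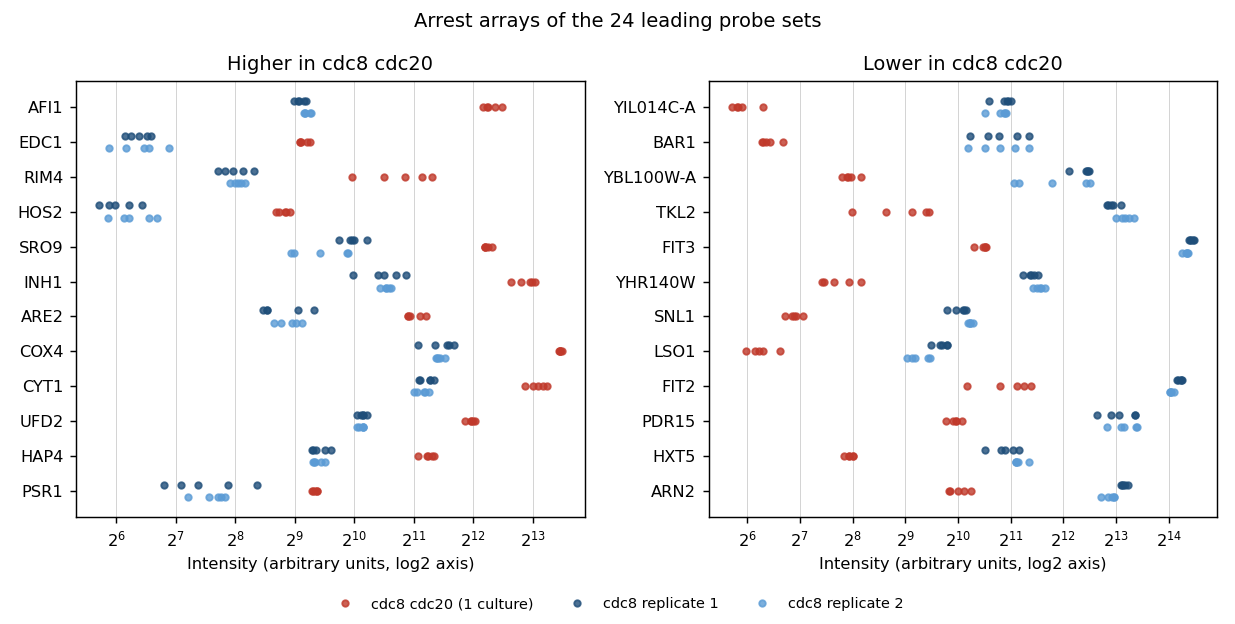
Intensity (log2 axis) on each arrest array of the 12 leading probe sets in each direction. Red points are the 5 cdc8 cdc20 arrays, dark and light blue points the 5 arrays of each cdc8 replicate. No red point overlaps a blue one in any row, and in RIM4 and TKL2 the red points are spread over a wider range than the blue ones.

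BAR1, the protease by which MATa cells degrade alpha factor, checks the labels. Its intensity was 103, 78, 86, 77 and 82 on the cdc8 cdc20 arrays and between 1164 and 2623 on the cdc8 arrays. The difference was -4.38 log2 (SE 0.37, adjusted p = 0.00145), and BAR1 was at a log2 of 6.25 to 7.44 in the 6 other cultures, all bar1 by their sample labels, although the study's strain table lists no bar1 for cse4. URA3, the orotidine phosphate decarboxylase used as a marker, was at 725, 675, 676, 712 and 706 in cdc8 cdc20, below all cdc8 arrays (1238 to 1636), with a difference of -1.02 (SE 0.16, adjusted p = 0.0170). It stood at a log2 of 12.55 to 12.89 in the cdc20 and cse4 cultures but at 9.45 in cdc8 cdc20 and at 8.32 and 8.54 in rad53, although all of these are labelled CFP-TUB1::URA3. The URA3 level therefore goes against that label in the cdc8 cdc20 and rad53 cultures, and its cause was not tested. URA3 lost its call in 3 of 20 alternative settings: over the last 5 time points, where the difference was -0.61, and with cdc8 replicate 1 or 2 left out, with adjusted p-values of up to 0.116. The transcript of CDC20 did not show the depletion that the label implies. It was at 491, 503, 523, 543 and 584 in cdc8 cdc20 and at 359 to 564 in cdc8, so that it was not lower (difference 0.14, SE 0.16, adjusted p = 0.660), and in cdc8 cdc20 it went from 416 on the first array to 851 at 360 min. At the course start it was higher than in cdc8 by 1.09 (adjusted p = 0.00616). Cdc20 protein was not measured on these arrays, and every direction given for cdc8 cdc20 is that of the culture so labelled. CDC8, LEU2, ADE2 and TUB1 differed by 0.23, -0.02, -0.17 and 0.30 and were not called.

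Several of the largest differences lay beside the altered loci, a pattern noticed after the values were seen. In the RefSeq gene order, YIL014C-A and SNL1 flank BAR1. YIL014C-A was at 79, 56, 60, 52 and 57 on the cdc8 cdc20 arrays and at 1457 to 2059 on the cdc8 arrays (difference -4.90, SE 0.16, adjusted p = 2.79e-05). SNL1, whose product is a membrane partner of Hsp70 chaperones, differed by -3.22 (SE 0.17, adjusted p = 0.000246). Both were also low in the 6 other cultures, at a log2 of 6.02 to 7.33. The deposited values carry no detection calls, and intensities near or below that of BAR1 in cdc8 cdc20 may be background. The sizes and ranks of BAR1, YIL014C-A, SNL1, LSO1, EDC1 and HOS2, each with 1 arm near that level, are therefore uncertain. AFI1 and RGA1 flank ADE2, the marker of the Pgall-CDC20 construct. AFI1, which acts in polarity with Arf3, was at 4607, 4873, 4803, 5248 and 5752 against 507 to 616 in cdc8 (difference 3.15, SE 0.16, adjusted p = 0.000246), and RGA1, a GTPase activator of Cdc42, differed by 1.50 (SE 0.16, adjusted p = 0.00360). AFI1 was at 12.16 and 12.34 in the cdc20 cultures and 11.06 and 11.13 in rad53, which carry the same construct, and at 9.01 and 8.73 in cse4, which does not. Over 3 genes on each side of 7 loci named in the genotypes, 4 of 12 measured neighbours of BAR1 and ADE2 were called, against 5.97 percent of all probe sets. At the other loci 2 of 25 were called, near that share: NFS1 beside LEU2 and the respiratory gene RIP1 near URA3. BAR1 differs between the strains by label and ADE2 marks the construct, and the part of their neighbours in the account of CDC20 was not tested. The cdc8 allele is shared by both arms. The genotype cdc20::LEU2 places that marker at CDC20, and the labels do not say whether the LEU2 and URA3 loci themselves differ.

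Genes of the respiratory chain and ATP synthase were the group with the most calls. Of 34 measured members 30 were higher in cdc8 cdc20 and 0 lower, with a median difference of 1.25 log2 against 0.05 over all probe sets. Over all probe sets 3.2 percent were higher. All 34 had a positive difference, from 0.56 in ATP1 to 2.02 in COX4. COX4, a nuclear-encoded subunit of cytochrome c oxidase, was at 11481, 11203, 11117, 11297 and 11193 in cdc8 cdc20 and between 2153 and 3285 in cdc8 (SE 0.23, adjusted p = 0.00556). The cdc8 cdc20 arrays were thus all above the highest cdc8 array. CYT1, which encodes cytochrome c1, was at 7524 to 9691 against 2063 to 2579 and differed by 1.90 (SE 0.18, adjusted p = 0.00213). COX5A, the aerobic form of another oxidase subunit, differed by 1.75 (SE 0.17, adjusted p = 0.00238). COX5B, its hypoxic counterpart, is not in the list and was lower (-0.89, adjusted p = 0.0443). QCR6 of the cytochrome bc1 complex differed by 1.73 (SE 0.16, adjusted p = 0.00209), NDE1, the external NADH dehydrogenase, by 1.54, and CYC1, cytochrome c, by 1.39. In the ATP synthase the changes were smaller, from 0.56 in ATP1 to 1.31 in ATP4. Also outside the list, INH1, the inhibitor of the ATP synthase, differed by 2.37 (SE 0.37, adjusted p = 0.0163). The 4 members not called were COX9 (1.31), NDI1 (0.87), SDH4 (0.71) and ATP2 (0.56).

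HAP4, the activating subunit of the Hap2/3/4/5 complex that drives respiratory genes, was at 2161, 2405, 2546, 2588 and 2379 in cdc8 cdc20 and at 629 to 786 in cdc8 (difference 1.83, SE 0.19, adjusted p = 0.00362). Of 25 measured genes for proteins of the mitochondrial ribosome 0 were called by limma, and their median was -0.22, with 4 positive. HEM3, an enzyme of heme synthesis, and PUF3, an RNA-binding protein that acts on mRNAs of mitochondrial proteins, had larger differences as measured, 2.82 and 3.47. Both missed the threshold (adjusted p = 0.0681 and 0.0514). In the cdc8 cultures HEM3 was at a log2 of 6.93 and 7.20 and PUF3 at 6.50 and 6.71. These levels are near that of BAR1 in cdc8 cdc20 (6.42) and may be background, so both sizes are uncertain. Both were chosen after their values were seen, and both differed between the cse4 replicates, at 7.79 and 10.01 for HEM3 and 6.96 and 9.38 for PUF3. The respiratory count fell to 8 once cdc8 replicate 1 was left out and to 11 once cdc8 replicate 2 was, with medians of 1.21 and 1.24. In 28 of the 34 members both cdc8 cultures lay outside the other 7 cultures, a pattern found in 28.6 percent of all probe sets, and in 4 the cdc8 cdc20 culture lay outside the other 8 (15.8 percent of all). The mean log2 intensity of the list was 11.98 and 12.04 in cdc8, 12.64 and 12.52 in cdc20, 12.90 and 12.92 in rad53, 13.23 in cdc8 cdc20 and 13.37 and 13.45 in cse4, which grew in galactose.

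Of 22 measured iron uptake genes 7 were lower in cdc8 cdc20, 0 higher and 15 not called, with a median of -0.65. Over all probe sets 2.76 percent were lower. FIT3, a cell wall mannoprotein that retains iron-bound siderophores, was at 1272, 1458, 1460, 1429 and 1478 in cdc8 cdc20 and between 19556 and 22940 in cdc8 (difference -3.91, SE 0.39, adjusted p = 0.00294). Its relatives FIT2 and FIT1 differed by -3.19 (adjusted p = 0.00621) and -2.39 (adjusted p = 0.00110). The siderophore transporters ARN2 and ARN1 differed by -3.01 (adjusted p = 0.00605) and -1.71 (adjusted p = 0.0277). Outside the list, LSO1, a small protein gene induced when iron is low, was at 63 to 98 against 524 to 891 and differed by -3.20 (SE 0.22, adjusted p = 0.000679). In the high-affinity reductive system, the oxidase gene FET3 and the permease gene FTR1 differed by 0.29 and -0.26 and were not called. TIS11, which degrades mRNAs of iron-using proteins when iron is scarce, differed by -2.25 with an SE of 0.61 (adjusted p = 0.0821). The count of 7 fell to 2 when cdc8 replicate 1 was left out and to 4 when cdc8 replicate 2 or a rad53 replicate was, and it was 16 when a cse4 replicate was. In 15 of the 22 members both cdc8 cultures lay outside the other 7, a pattern found in 28.6 percent of all probe sets.

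Among genes of carbon and redox metabolism, TKL2, the minor transketolase of the pentose phosphate pathway, was at 255, 399, 558, 672 and 699 in cdc8 cdc20 and at 7278 to 10408 in cdc8 (difference -4.12, SE 0.27, adjusted p = 0.000547). NQM1, a transaldolase of the same pathway chosen after its value was seen, differed by -2.63 (adjusted p = 0.00110). HXT5, a hexose transporter of slowly growing cells, was at 227 to 258 against 1458 to 2621 and differed by -3.08 (SE 0.24, adjusted p = 0.00110). HXT7, a high-affinity transporter, was higher by 1.27 (adjusted p = 0.0214). Of 29 general stress genes 2 were lower, GRE1 (-2.12) and ALD3 (-1.94), and 0 higher, a share near the 5.97 percent of all probe sets. Of 14 osmotic and glycerol genes 4 were lower (2.76 percent of all probe sets were) and 0 higher: SIP18 (-1.58), GRE2 (-1.52), and the glycerol phosphatases GPP1 (-1.19) and GPP2 (-1.03). GPP1 was at 7367 to 9862 against 16586 to 21766. In the cse4 cultures TKL2 stood at a log2 of 12.98 and 12.31, near cdc8 (12.92 and 13.18). The osmotic count was 1 and 2 with cdc8 replicate 1 and 2 left out, and the stress count was 0 in both cases.

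PDR15, an ABC transporter of drug export under the regulators Pdr1 and Pdr3, was at 879, 957, 996, 993 and 1077 in cdc8 cdc20 and at 6371 to 10775 in cdc8, lowest at the last time of the window in both cdc8 cultures (difference -3.18, SE 0.20, adjusted p = 0.000547). Of related genes looked up after the values were seen, some were lower and others were not called. RSB1, a sphingoid base exporter, differed by -2.63 (adjusted p = 0.00220), CIS1 by -2.42 (adjusted p = 0.0150) and the regulator gene PDR3 by -1.42 (adjusted p = 0.0198). The exporter genes PDR5, SNQ2 and PDR10 differed by -0.43, -0.50 and -0.08 and were not called. PDR15 was at 9.66 to 10.84 in the 6 other cultures, close to cdc8 cdc20 (9.94) and not to cdc8 (13.06 and 13.16).

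Other leading genes had less in common. EDC1, an activator of mRNA decapping, was at 542 to 609 against 59 to 119 and differed by 2.75 (SE 0.30, adjusted p = 0.00469). HOS2, a histone deacetylase, was at 410 to 486 against 53 to 104 and differed by 2.62 (SE 0.20, adjusted p = 0.00102). SRO9, a La-motif RNA-binding protein, differed by 2.53 (adjusted p = 0.0210), ARE2, a sterol acyltransferase, by 2.16 (adjusted p = 0.0270), UFD2, a ubiquitin chain elongation factor, by 1.84 (adjusted p = 0.00853) and PSR1, a plasma membrane phosphatase, by 1.77 (adjusted p = 0.0109). SRO9, ARE2, UFD2 and PSR1 lost their call in at least 1 setting. RIM4, an RNA-binding repressor of translation in meiosis, was at 998, 1452, 1855, 2253 and 2529 in the order of sampling, against 211 to 319 in cdc8, and reached 3711 at 360 min (difference 2.73, SE 0.17, adjusted p = 0.000524). RIM4 was still climbing when the arrest window ended. It was at 11.60 and 11.61 in rad53 and at 7.89 and 7.92 in cdc20. Of 18 measured meiosis genes RIM4 and the meiotic kinase gene IME2 (0.99, adjusted p = 0.0213) were higher and the spore wall gene SPS100 (-1.26, adjusted p = 0.0148) lower. Over all probe sets 3.2 percent were higher and 2.76 percent lower. YHR140W, which has no gene name in the annotation, differed by -3.73 (adjusted p = 0.000246). YBL100W-A, a Ty retrotransposon gene present in many near-identical copies, differed by -4.13 with an SE of 0.84, and what its probe set measures is uncertain.

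**Figure D3:**
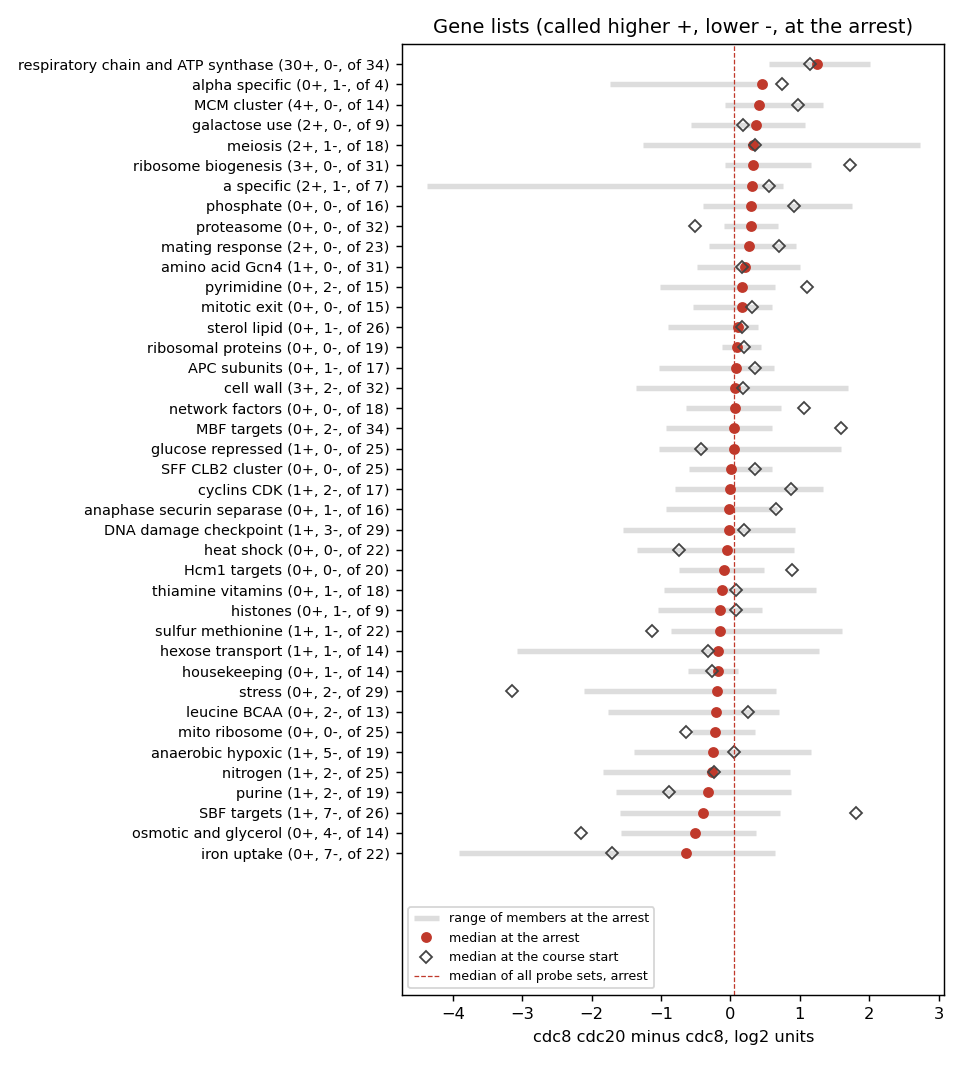
Difference between the strains (cdc8 cdc20 minus cdc8, log2 units) by gene list. Red points are list medians at the arrest, open diamonds list medians at the course start, grey bars the range of members at the arrest and the dashed line the median of all probe sets at the arrest, 0.05. Counts of members called higher and lower at the arrest stand beside each name. The respiratory list is at the top with a median of 1.25 and the iron list at the bottom with -0.65, while the stress, SBF and ribosome biogenesis lists are farther from 0 at the start than at the arrest.

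In the mitotic cell cycle lists few differences passed at the arrest. CLB2, the main mitotic cyclin, was at 937, 857, 738, 706 and 671 in cdc8 cdc20 and between 663 and 1009 in cdc8, so that the arms overlapped, and differed by -0.07 (SE 0.26, adjusted p = 0.912). CLN2, a G1 cyclin, was at 391 to 440 against 383 to 618 and differed by -0.18 (SE 0.19, adjusted p = 0.648). The CDK inhibitor gene SIC1 and the transcription factor genes YOX1, FKH1, NDD1, SWI5 and NRM1 differed by -0.10, -0.41, -0.56, 0.32, 0.19 and 0.23 and were not called, with adjusted p-values of 0.134 to 0.752. FKH1 was called (adjusted p = 0.0136) with either cse4 replicate left out. Of the 25 measured genes of the CLB2 cluster, transcribed in G2 and M by the SFF complex, 0 were called by limma, and their median was 0.00. The same holds for 20 targets of Hcm1 (median -0.10), 18 network transcription factors (0.07) and 15 mitotic exit genes (0.16), each with 0 called. Across all probe sets 1300 (22.7 percent) had an unadjusted p of at most 0.05, and 341 were called after adjustment.

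Among genes of the G1 to S transition the calls lay mostly with 1 factor. Of 26 targets of SBF, the factor that opens this wave with Swi4 as its DNA-binding subunit, 7 were lower (2.76 percent of all probe sets were), 1 (RSR1, 0.71) higher, and the median was -0.40. TOS6, a cell wall protein gene, was at 424, 365, 374, 446 and 356 in cdc8 cdc20 and at 695 to 2504 in cdc8 (difference -1.60, SE 0.29, adjusted p = 0.0253). From 180 to 260 min it went from 1833 to 695 in cdc8 replicate 1 and from 2504 to 845 in replicate 2. In replicate 2 PRY2 went from 2700 to 1183 and SVS1 from 2227 to 1077, so the size of these differences depends on the window. The cell wall genes PRY2 and SVS1 differed by -1.27 and -1.02, BUD9, a bud site protein gene, by -0.97, the Pho85 cyclin gene PCL1 by -0.84, the mitotic inhibitor kinase gene SWE1 by -0.80 and the G1 cyclin gene CLN1 by -0.61 (adjusted p between 0.0202 and 0.0392). The 7 became 0 with any 1 of the cdc8 or rad53 replicates left out. Of 34 targets of MBF, the related factor with Mbp1, 2 were lower and 0 higher, a share near the 5.97 percent called over all probe sets, and the median was 0.05. The 2 were PDS1 (-0.93, adjusted p = 0.0342), which encodes securin, and RNR1 (-0.82, SE 0.16, adjusted p = 0.0328). RNR1, the large subunit of ribonucleotide reductase, was at 9489 to 11214 in cdc8 cdc20 and at 15867 to 20013 in cdc8. The count of 2 became 0 under the same omissions. HTB2, which encodes histone H2B, went from 7087 to 2223 over the 5 cdc8 cdc20 arrays, with 5224 to 10408 in cdc8 (difference -1.04, adjusted p = 0.0385), and was the 1 histone gene called of 9.

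Genes that open the next cycle showed the opposite sign. In the MCM cluster, transcribed at the M to G1 boundary, 4 of 14 measured members were higher, 0 lower, and 13 had a positive difference (median 0.41). Over all probe sets 3.2 percent were higher. The difference was already present at the course start, with 7 of the 14 higher (median 0.98). In the change from start to arrest 1 member was called upwards and 3 downwards (median -0.28). CLN3, the G1 cyclin upstream of SBF, was at 3772, 3550, 3579, 3844 and 3978 in cdc8 cdc20 and at 1047 to 2079 in cdc8 (difference 1.33, SE 0.19, adjusted p = 0.0108). MCM5 and MCM3, subunits of the replicative helicase, differed by 0.91 (adjusted p = 0.0168) and 0.72 (adjusted p = 0.0443), and HSP150, a cell wall protein gene, by 0.85 (adjusted p = 0.0210). CLN3 was also high in the cdc20 cultures (12.49 and 12.68) and lower in rad53 (10.71 and 10.60). The count was 0 with cdc8 replicate 1 left out, and 1 with cdc8 replicate 2 or a rad53 replicate left out.

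In the DNA damage and replication checkpoint list, 3 of 29 members were lower and 1 higher, with a median of -0.02. Over all probe sets 2.76 percent were lower and 3.2 percent higher. RNR3, the damage-induced large subunit of ribonucleotide reductase, was at 2973, 3095, 3363, 3633 and 3822 in cdc8 cdc20 and at 6597 to 11141 in cdc8 (difference -1.48, SE 0.32, adjusted p = 0.0419), while in the cdc20 cultures it was at a log2 of 7.98 and 8.21. GTT2, a glutathione transferase, was lower (-1.56, SE 0.14, adjusted p = 0.00183) and MRC1, a fork protein that relays the signal to Rad53, higher by 0.93 (adjusted p = 0.0277). The kinase genes RAD53 and DUN1 differed by -0.26 and 0.37 and were not called, though DUN1 passed with either cse4 replicate left out (adjusted p = 0.0417). Of 17 APC subunit genes 1, DOC1, was called lower (adjusted p = 0.0372), a share near the 5.97 percent of all probe sets. It was at 47.4 to 76.7 against 83.9 to 124, near the level of BAR1 in cdc8 cdc20 in both arms, so no size is given. The checkpoint count of 3 became 1 with any 1 of the cdc8 or rad53 replicates left out.

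The remaining lists held few calls. Over all probe sets 3.2 percent were higher and 2.76 percent lower, and many of the counts below are near these shares. Of 9 genes of galactose use, GAL7 (1.07, adjusted p = 0.0233) and GAL1 (1.00, adjusted p = 0.0313) were higher, GAL1 at 559 to 612 against 261 to 308. In the cse4 cultures, kept in galactose, GAL1 was at a log2 of 14.72 and 14.58, against 9.17 in cdc8 cdc20. Of 19 hypoxic genes 5 were lower, led by the metal transporter FET4 (-1.39) and the cell wall protein TIR1 (-1.30), and the hypoxic repressor gene ROX1 was higher (1.16, adjusted p = 0.00845). Of 31 ribosome biogenesis genes 3 were higher, the snoRNP proteins NOP58 (1.16) and CBF5 (1.07) and the polymerase I subunit RPA43 (0.63), and 29 had a positive difference. Of the MATa genes other than BAR1, the pheromone genes MFA1 and MFA2 were higher by 0.75 and 0.74. MF(ALPHA)2, an alpha factor gene, was lower (-1.74), at 134 to 174 against 361 to 805, while 3 of the 4 MATalpha genes had a positive difference. GAP1, the general amino acid permease, was at 1048 to 1758 against 4334 to 5117 (difference -1.84, adjusted p = 0.00362). Of 13 genes of leucine and branched-chain amino acid synthesis 2 were lower, LEU1 (-1.28, adjusted p = 0.0323) and the transporter gene OAC1 (adjusted p = 0.0240). Proteasome (32), heat shock (22), ribosomal protein (19) and phosphate (16) genes had 0 members called by limma, with medians of 0.30, -0.05, 0.09 and 0.30. Cell wall genes had 3 of 32 higher and 2 lower, purine genes 1 of 19 higher and 2 lower, nitrogen genes 1 of 25 higher and 2 lower, and sulfur and methionine genes 1 of 22 higher and 1 lower. Of 15 pyrimidine genes 2, URA3 among them, were lower and 0 higher, and of 23 mating response genes 2 were higher and 0 lower. Of 31 Gcn4 amino acid genes and 25 glucose-repressed genes 1 each was higher and 0 lower. Of 26 sterol and lipid, 18 thiamine and vitamin, 16 anaphase and 14 housekeeping genes 1 each was lower and 0 higher. Of 17 cyclin and CDK genes 1 was higher and 2 lower, and of 14 hexose transport genes 1 was higher and 1 lower. The galactose, MFA and leucine calls were all lost with either cdc8 replicate left out, and the hypoxic count of 5 fell to 0 and 2 and the ribosome biogenesis count of 3 to 1 and 0 with cdc8 replicate 1 and 2 left out.

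Near the start of the courses, at the closest times sampled, the strains were much farther apart. Means of 36 and 54 min in cdc8 cdc20 and of 30 and 50 min in cdc8 differed in 2139 probe sets (37.4 percent), 1212 higher (21.2 percent) and 927 lower (16.2 percent) in cdc8 cdc20, with a median of 0.13. The cultures were then at different points of the first cycle. The mean log2 intensity of the SBF targets peaked at 72 min in cdc8 cdc20 and at 100 and 110 min in the cdc8 replicates, at 11.49, 11.38 and 11.40. CLN2 peaked at 72 min (3389) against 90 and 100 min (2717 and 2674), and CLB2 at 108 min (1465) against 160 and 140 min (1074 and 1060). Of 26 SBF targets 20 were higher at the start (median 1.81), of 34 MBF targets 29 (1.59) and of 31 ribosome biogenesis genes 29 (1.72). Of 29 general stress genes 26 were lower (median -3.15). The first arrays of the cdc8 cultures had a mean log2 of 13.29 and 13.56 over this list, and the first array of the cdc8 cdc20 culture one of 10.69.

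The change of the difference from start to arrest was tested in itself, as the arrest mean minus the start mean of each culture. It was called in 2257 probe sets (39.5 percent), 1042 upwards (18.2 percent) and 1215 downwards (21.3 percent) in cdc8 cdc20 relative to cdc8. The differences of the stress and G1 to S lists moved towards 0, with 27 of 29 stress genes called upwards (median 3.01) and 24 of 26 SBF targets downwards (median -1.97). For the respiratory list 24 of 34 members were already higher at the start (median 1.15), and 3 were called upwards and 1 downwards in the change (median 0.04). COX4, CYT1, COX5A and HAP4 changed by 0.11, 0.15, -0.19 and 0.20, with adjusted p-values of 0.344 to 0.702. Iron uptake was lower in 17 of 22 members at the start (median -1.71), and 13 members were called upwards in the change (median 1.15), with FIT3 at -3.86 at the start and -3.91 at the arrest. Of the 341 probe sets called at the arrest, 134 (39.3 percent) were called at the start and not in the change, and 160 (46.9 percent) were called in the change. With all arrays up to 60 min as the start, 677 probe sets were called at the start and 199 in the change.

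**Figure D4:**
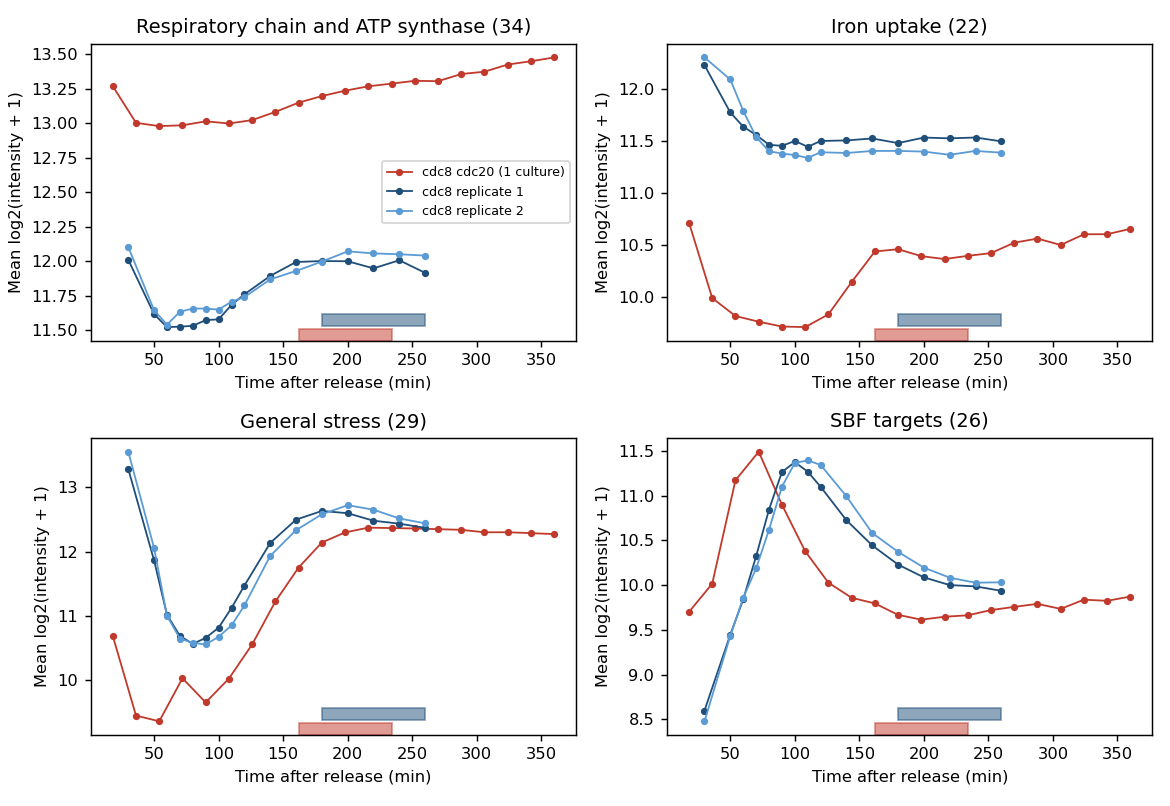
Mean log2(intensity + 1) of 4 gene lists on every array of the cdc8 cdc20 culture (red) and of cdc8 replicates 1 and 2 (dark and light blue) against time after release in min, with bars at the foot for the arrest windows of each strain. The respiratory curve of cdc8 cdc20 stays above both cdc8 curves and its iron curve below them at all times, the stress curves meet by the end, and the SBF wave peaks at 72 min in cdc8 cdc20 and at 100 and 110 min in cdc8.

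Set beside the other strains, most of the calls had cdc8 as the outlying strain. Among the 341 probe sets called, both cdc8 cultures lay outside the other 7 cultures in 211 (61.9 percent, against 28.6 percent of all probe sets). The cdc8 cdc20 culture lay outside the other 8 in 76 (22.3 percent, against 15.8 percent). In 78 called probe sets neither held. The calls and the outlying positions use the same 3 cultures, so these shares are descriptions. FIT3 was at 10.47 in cdc8 cdc20 and at 9.64 to 10.39 in cdc20 and rad53, against 14.43 and 14.33 in cdc8 and 12.40 and 13.27 in cse4. For RNR3 the cdc8 cultures were outlying too, but the cdc8 cdc20 level of 11.72 lay between those of cdc8 (13.31 and 13.07) and all other strains (7.98 to 9.89). The SBF targets TOS6 and PRY2 were lowest in cdc8 cdc20 among the 9 cultures (8.62 and 9.26).

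**Figure D5:**
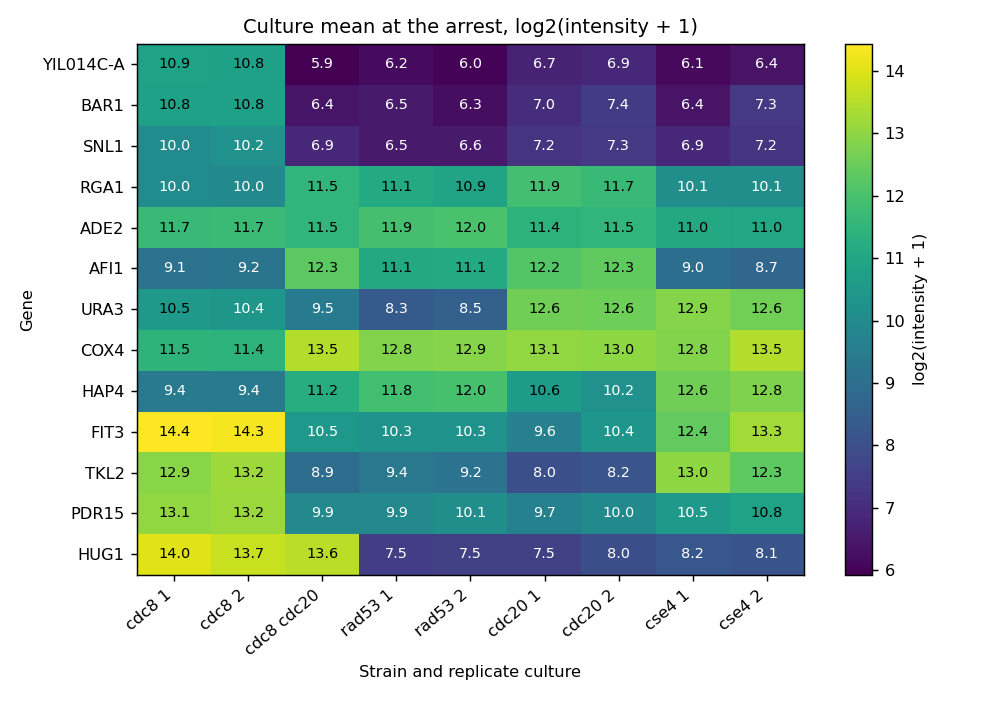
Culture mean at the arrest, log2(intensity + 1), of 13 genes in all 9 cultures, with colour from dark (low) to bright (high) and the value printed in each cell. The BAR1 neighbourhood is high in the 2 cdc8 cultures alone, AFI1 and RGA1 are highest in the 5 cultures with the Pgall-CDC20 construct, and HUG1 is high in the cdc8 and cdc8 cdc20 cultures.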

How the data were processed

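RNA of whole cultures was hybridised to Affymetrix Yeast Genome 2.0 arrays. The authors processed the scans (affy 1.32.1 in the submitters' processing notes, dChip normalization in the methods) and deposited linear intensities of 5900 probe sets on 160 arrays. Leaving out 184 control probe sets gave 5716, of which 5498 had 1 gene symbol in the platform annotation and 218 none. Intensities were converted to log2(intensity + 1) and averaged over the arrest window of each culture, since arrays of 1 culture are not replicates. The other windows were 162 to 234 min in rad53, 200 to 280 min in cdc20 and 255 to 330 min in cse4. P-values measure the spread between replicate time courses of a strain, which the study describes as independent. The 9 culture means entered 1 limma 3.58.1 fit (R 4.3.3), contrast cdc8 cdc20 minus cdc8, with Benjamini-Hochberg adjustment over all 5716 and a threshold of 0.05. The same fit was made for the course start and for arrest minus start. Lists are given by counts and medians, with no set test. Where a gene had several probe sets, the brightest stands for it. The fit was tested on simulated data, in which 59 of 100 shifts of 1 log2 unit and 92 of 100 of 2 log2 units were called. A gene not called may therefore still differ.

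Named genes were the 12 leading probe sets in each direction, up to 4 called members of each list, the construct genes, 12 regulators named in the study (11 of them measured under their name) and the 5 largest changes in each direction. The members and lists were chosen with earlier results of these data known. The labels name 1 labelling kit for all arrays and the study's methods name 2, without saying which arrays had which, so a kit effect was not tested. The number of arrays limits the precision. The result of 1 gene list is not reported here. No sequence is printed because sequence tables were not used here.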

Additional observations from a re-analysis of the deposited data

Results flagged for a closer look

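The results below were picked out because the difference between the strains at the arrest departed from that at the course start, by limma's test of the change. Of the 111 named genes, 69 passed this test. The 23 given here are the regulators and leading changes, and the genes called in opposite directions at both times, and the other 46 are not listed. All compare the arrest difference minus the start difference in log2 units, over 1 cdc8 cdc20 and 2 cdc8 cultures.

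Genes of stress and reserve carbohydrate metabolism moved upwards: SOL4 by 5.51, GPH1 by 5.13, GAD1 by 4.67, RTC3 by 4.60 and TSL1 by 4.57. At the arrest these 5 differed by -0.41 to 0.36 and were not called. HXT7 (4.14) and MMP1 (2.55), transporters of hexose and S-methylmethionine, were lower at the start and higher at the arrest.

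Genes of the G1 to S wave moved downwards: TOS6 by -4.07, PRY2 by -3.84, YOX1 by -3.27, PCL1 by -3.27, SVS1 by -3.14, CLN2 by -3.12, RNR1 by -2.99, CLN1 by -2.67 and NRM1 by -2.39. SCW10 changed by -3.86, HTB2 by -1.96, DUN1 by -1.50, CLB2 by -1.50, RAD53 by -1.49, FKH1 by -1.32 and NDD1 by -0.93. TOS6, PRY2, PCL1, SVS1, RNR1, CLN1 and HTB2 were called higher at the start and lower at the arrest. Cell cycle position at the start moved with these changes, as the SBF wave peaked at 72 min in cdc8 cdc20 and at 100 and 110 min in cdc8, and its part was not tested.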

How the results depend on the processing

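The arrest count of 341 stayed within 1.5 times under the clock window (311), the last 5 time points (473), quantile normalization (250), array centring (340), a pseudocount of 32 (331), the filter on the lowest 20 percent (263), a trended robust prior (335) and window medians (305). The split of calls moved from 53.7 percent higher to 67.0 percent with the last 5 time points, when cdc8 cdc20 was sampled later. It was 47.6 percent under quantile normalization and 44.1 percent with arrays centred on their median (150 higher, 190 lower), which put the majority in the other direction. The count was 1572 with only the 2 strains compared and 1286 without the cse4 cultures. Without the rad53 cultures, chosen after seeing the data, it was 130. Leaving out 1 replicate gave 45 to 1286. The replicate numbers did not pair the cultures, as correlations of replicate deviations between strains ran from -0.19 to 0.21, and cdc8 cdc20 has 1 number only. With the replicate block 193 probe sets were called, 179 of them among the 341.

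The start count of 2139 became 677 with all arrays up to 60 min and 1068 to 3108 with 1 replicate left out. The change count of 2257 became 199 and 1106 to 2989. The respiratory count of 30 was 8 to 34 with 1 replicate left out. The iron count of 7 was 16 with only the 2 strains and without the cse4 cultures, 4 without the rad53 cultures, 4 with the replicate block and 2 to 16 with 1 replicate left out. Of the 90 named genes called, 2 turned direction, both over the last 5 time points: RME1 (0.0015) and GSC2 (0.36). Under quantile normalization 17 lost their call, with the replicate block 35. The cause was not tested.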
